A study of Mus musculus with 7 samples.

Results

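The genes described here are 7 transcriptional effectors and response genes of Notch signalling: Hes1, Hes5, Hes6, Hey1, Heyl, Nrarp and Dtx4. They were taken from the array as every gene probe, controls left out, that carries 1 of these names. This gave 11 probes of 41174 gene probes. After a filter on dim probes 6 of the 7 genes remained among 17545 genes, and Hey1 did not pass it.

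The study sorted epithelial cells of the mouse small intestine by green fluorescent protein (GFP) and measured them on 7 dual-colour Agilent arrays. GFP-high cells of Dll1-EGFP-ires-CreERT2 mice, in which the promoter of the Notch ligand Dll1 drives GFP and CreERT2, were divided at 3 levels of the surface protein CD24, named CD24 low, medium and high here, with 2 arrays each. GFP-high cells of Lgr5-EGFP-ires-CreERT2 mice, in which the stem cell receptor gene Lgr5 drives the same cassette, gave 1 array. Each sample carried Cy3 and was hybridised with Cy5-labelled RNA of whole small intestine. All groups therefore come from reporter mice, and the age, sex and number of animals are not given in the sources used here. The 2 arrays of a CD24 level are called biological replicates but are not tied to animals, so p-values measure the spread between these samples. Lgr5 has no replicate, and its spread was taken to be that of the Dll1 groups. A level below is the log2 ratio of sample over whole intestine, and a difference is 1 level minus another.

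When a Notch receptor meets a Delta or Jagged ligand on a neighbouring cell, gamma-secretase frees its intracellular domain, which joins the DNA-binding protein Rbpj and switches on target genes. Hes1, Hes5, Hey1 and Heyl encode basic helix-loop-helix repressors. Hes1 shuts off proneural factors such as Atoh1, and in the gut this keeps crypt cells from entering the secretory lineage. Hes6 is the odd relative: it is known to inhibit Hes1, and in the nervous system it accompanies differentiation. Nrarp is a Notch target that promotes loss of the intracellular domain, and Dtx4 encodes a ubiquitin ligase of the Deltex family, which acts on Notch.

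Hes5 and Nrarp were both highest on the Lgr5 array, so the 250 bases upstream of their RefSeq starts are shown (GRCm38.p6, plus strand), at chr4:154960673-154960922 for Hes5 and chr2:25180508-25180757 for Nrarp. Capitals mark the letters TGGGAA on either strand, the core of the site that Rbpj is known to bind.
Hes5: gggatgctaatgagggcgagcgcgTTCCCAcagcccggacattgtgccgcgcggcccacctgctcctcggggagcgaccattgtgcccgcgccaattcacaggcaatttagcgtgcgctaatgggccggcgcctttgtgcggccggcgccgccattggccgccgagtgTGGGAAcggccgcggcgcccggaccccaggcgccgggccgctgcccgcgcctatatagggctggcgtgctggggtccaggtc
Nrarp: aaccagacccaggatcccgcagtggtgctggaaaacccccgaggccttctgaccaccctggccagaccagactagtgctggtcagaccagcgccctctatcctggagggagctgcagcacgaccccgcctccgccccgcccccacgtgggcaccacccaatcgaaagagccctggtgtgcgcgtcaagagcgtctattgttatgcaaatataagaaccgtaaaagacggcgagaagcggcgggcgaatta
The Hes5 window holds 2 matches, beginning 226 and 82 bases before the start, and each is part of the longer word GTGGGAA or its complement. The Nrarp window holds 0 matches, as do both Hes6 windows, at chr1:91414039-91414288 and chr1:91413223-91413472 on the minus strand. Of 32851 RefSeq windows of this length, 21.6% hold TGGGAA and 5.4% hold GTGGGAA on either strand. Promoter windows of 3 of the 7 genes were matched.

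Array probes have 60 bases, and 2 of them are shown because the Hes1 values and the second set of Hes6 values rest on them.
Hes1: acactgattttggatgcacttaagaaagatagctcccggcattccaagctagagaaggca
Hes6: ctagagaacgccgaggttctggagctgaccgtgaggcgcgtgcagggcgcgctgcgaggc
The Hes1 probe lies at chr16:30065983-30066278 (mm9, plus strand), a span of 296 bases for 60, so it crosses an intron. This Hes6 probe lies at chr1:93309308-93309367 (mm9, minus strand) and starts at base 265 of the transcript. The other Hes6 probe starts at base 1071, and the 3 Dtx4 probes at bases 3488, 5451 and 5601. The longest run shared by probes of different genes of the set was 12 bases.

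CD24 high arrays were the dimmest, with 42.5 to 44.4% of sample spots well above background, against 52.8 to 60.5% elsewhere. Over genes, arrays of the same group correlated at 0.904 to 0.94, and CD24 low replicate 1 correlated at 0.916 with CD24 medium replicate 1. Markers were set against the labels. The stem cell list holds Lgr5 and the Paneth list Cd24a, the gene of CD24, so the place of these genes follows from the sort. The summed intensity of 10 stem cell markers was 4803 to 6659 on the Dll1 arrays and 41038 on the Lgr5 array. Paneth cell markers led in CD24 high and enteroendocrine markers in CD24 medium, while goblet markers were 164898 or more in sum on every Dll1 array, against 29785 on the Lgr5 array. The slide with the Lgr5 array also held CD24 medium replicate 1 and CD24 high replicate 1. In bulk samples, fewer cells making a gene and less RNA per cell cannot be told apart.

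Dtx4, Nrarp and Hes5 marked the Lgr5 cells, and Hes6 was higher in the mean of the Dll1 groups, by a call just under the threshold. Hes1 was not called for that mean against Lgr5, with a difference of −0.39 and a 95% interval of −0.86 to 0.07. Against Lgr5, the mean of the Dll1 groups was called higher for 2 of the 6 genes tested, Hes6 and Heyl, and lower for 3, with 1 not called, where 30.8% of all genes were called (limma, Benjamini-Hochberg adjusted p under 0.05). Higher genes made up 17.5% and lower genes 13.3% of all. Heyl passed the filter on dim probes only through CD24 low and CD24 high, where it is high, so its calls are no support for a difference. The median difference over all genes was 0.13, a shift that holds for each difference of the Dll1 mean to Lgr5 below. Separately, each Dll1 group had 1 of the 6 genes higher than Lgr5, Hes6 in CD24 medium and Heyl in the others, and 3 lower. Of all genes, 21.7% were called for CD24 low (11.9% higher, 9.78% lower), 18.8% for CD24 medium (10.3% higher, 8.5% lower) and 35.8% for CD24 high (21.2% higher, 14.6% lower). These comparisons share the 1 Lgr5 array.

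**Figure D1:**
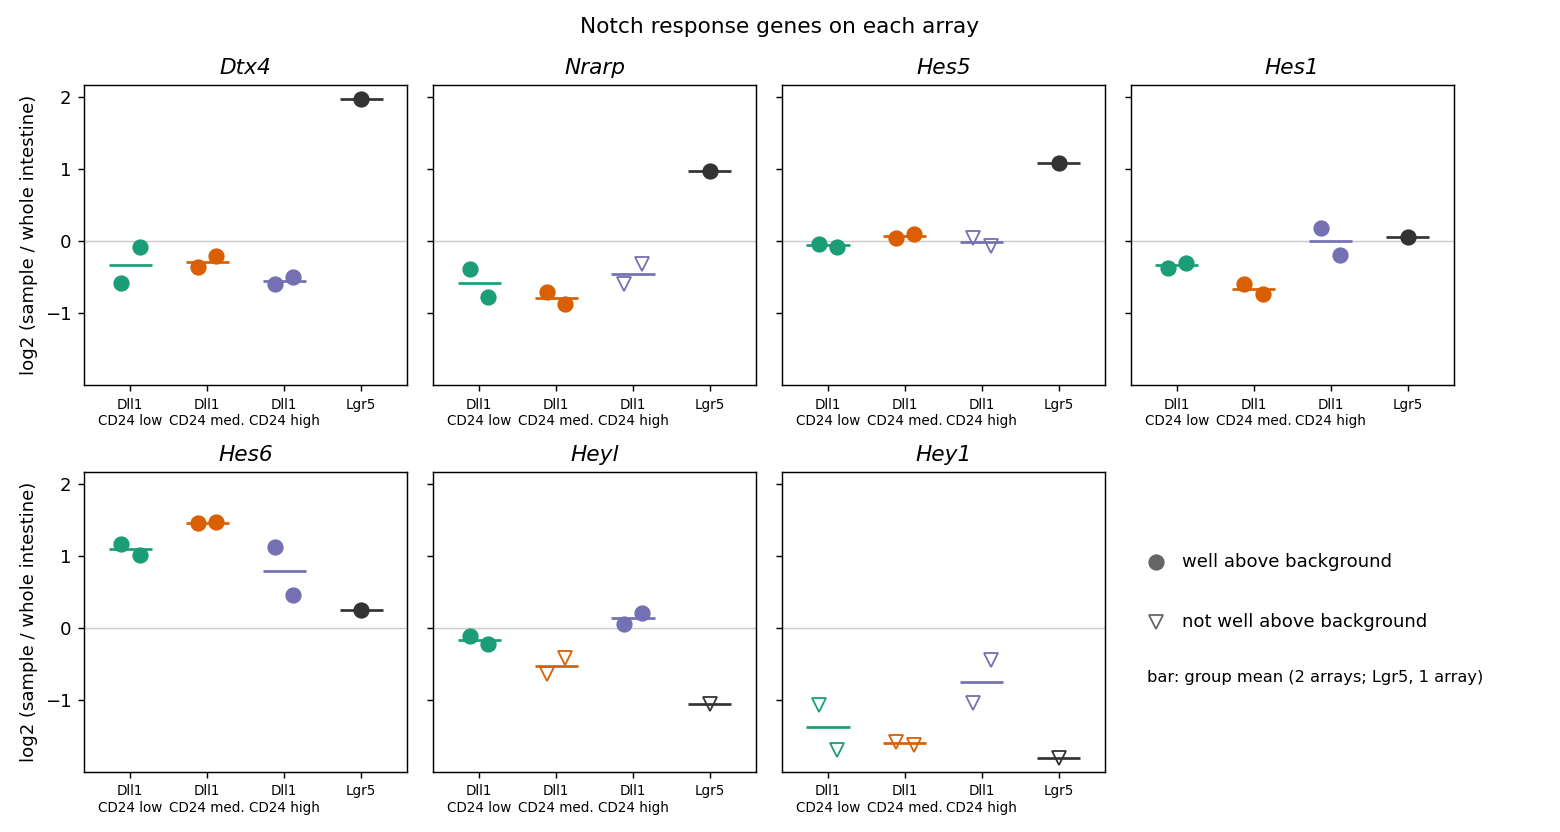
Log2 ratio of sample over whole intestine (vertical axis) of the 7 genes on each array, by sorted group (horizontal axis), with bars for group means and open triangles for spots not well above background. Dtx4, Nrarp and Hes5 stand at 1.98, 0.97 and 1.09 on the Lgr5 array, above all their Dll1 arrays.

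Dtx4 had the largest difference between Dll1 and Lgr5 cells among the 6 genes tested in this setting, though with Agilent's processed signals that of Nrarp was larger. Its level was −0.58 and −0.08 in CD24 low, −0.36 and −0.21 in CD24 medium, with −0.60 and −0.50 in CD24 high, against 1.98 in Lgr5. No Dll1 array came near the Lgr5 array, and the 3 Dll1 groups lay close together. The spot intensity of this probe was 698 and 956 in CD24 low, 954 and 982 in CD24 medium, with 318 and 322 in CD24 high, against 6740 in Lgr5, all well above background. The mean of the Dll1 groups was 5.17-fold lower than Lgr5 (log2 difference −2.37, SE 0.22, limma adjusted p = 0.001). The difference was −2.31 for CD24 low, −2.27 for CD24 medium and −2.53 for CD24 high (limma adjusted p = 0.0029, 0.0033 and 0.00082).

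The other probes of Dtx4 gave the same picture with smaller differences, −1.69 and −2.12 for the Dll1 mean against Lgr5. Within the slide that holds the Lgr5 array, the difference of the used probe was −2.34 for CD24 medium and −2.58 for CD24 high. The Deltex relatives did not share this pattern: Dtx1, Dtx2 and Dtx3 had differences of 1.03, 0.57 and 0.87 for the Dll1 mean against Lgr5, none of them called (limma adjusted p = 0.066, 0.058 and 0.057). By group, Dtx1 was called higher than Lgr5 in CD24 high (difference 1.46, limma adjusted p = 0.029), but not in CD24 low or CD24 medium.

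Nrarp, the feedback inhibitor of the Notch intracellular domain, was lower than whole intestine in every Dll1 sample and higher than it in Lgr5. Its level was −0.39 and −0.77 in CD24 low, −0.71 and −0.88 in CD24 medium, with −0.60 and −0.32 in CD24 high, against 0.97 in Lgr5. The Lgr5 array was apart from all 6 Dll1 arrays. The probe was dim: 102 and 111 in CD24 low, 107 and 96 in CD24 medium, with 77.3 and 69.9 in CD24 high, against 271 in Lgr5, and both CD24 high spots were not well above background. The mean of the Dll1 groups was 3-fold lower than Lgr5 (difference −1.59, SE 0.21, limma adjusted p = 0.0034). CD24 low was 2.94-fold and CD24 medium 3.41-fold lower, and CD24 high at least 2.52-fold lower (limma adjusted p = 0.0085, 0.006 and 0.0056).

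A bound such as that for CD24 high sets the mean of the bright group against the higher of the dim probe's own signal and the lowest signal well above background, in the sample channel after loess and Aquantile scaling, with no dye swap to balance dye bias. The size of the Nrarp difference depends on how dim spots are treated. With Agilent's processed signals the Dll1 mean differed from Lgr5 by −3.32 (limma adjusted p = 0.019), and the call for CD24 low was lost (difference −2.70, limma adjusted p = 0.056).

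Hes5, a repressor that Notch induces strongly in neural progenitors, gave the third difference of this kind. Its level was −0.04 and −0.08 in CD24 low, 0.05 and 0.10 in CD24 medium, with 0.04 and −0.07 in CD24 high, against 1.09 in Lgr5. The 6 Dll1 values spread over less than the gap to Lgr5. Its spots measured 113 and 130 in CD24 low, 133 and 138 in CD24 medium, with 83 and 78.1 in CD24 high, against 216 in Lgr5, with CD24 high not well above background. The mean of the Dll1 groups was 2.13-fold lower than Lgr5 (difference −1.09, SE 0.16, limma adjusted p = 0.0044). CD24 low was 2.22-fold and CD24 medium 2.02-fold lower (limma adjusted p = 0.0085 and 0.013). CD24 high, at background, differed by −1.10 in level (limma adjusted p = 0.0048), and its mean level was not below that of CD24 low.

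The Hes5 call for CD24 medium was lost without either CD24 medium array (limma adjusted p = 0.062 and 0.064), and that for CD24 low with slide as a term (limma adjusted p = 0.054). With Agilent's processed signals the Dll1 mean differed from Lgr5 by −1.85 (limma adjusted p = 0.011). In contrast, the calls of Dtx4, Nrarp and Hes5 for the Dll1 mean were kept in the 15, 14 and 14 alternative settings in which each was tested. With a filter on all 7 arrays, Nrarp and Hes5 were not tested. The summed stem cell markers given above were, like these 3 genes, highest on the Lgr5 array. By ratio, the marker median was −1.03 to −0.85 in CD24 low, −0.83 to −0.81 in CD24 medium and −0.16 to −0.01 in CD24 high, against 1.69 in Lgr5. Of the 10 markers, 5 were called lower in CD24 medium than in CD24 high, beside 13.3% of all genes. The part of these markers in the result for the 3 genes was not tested.

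**Figure D2:**
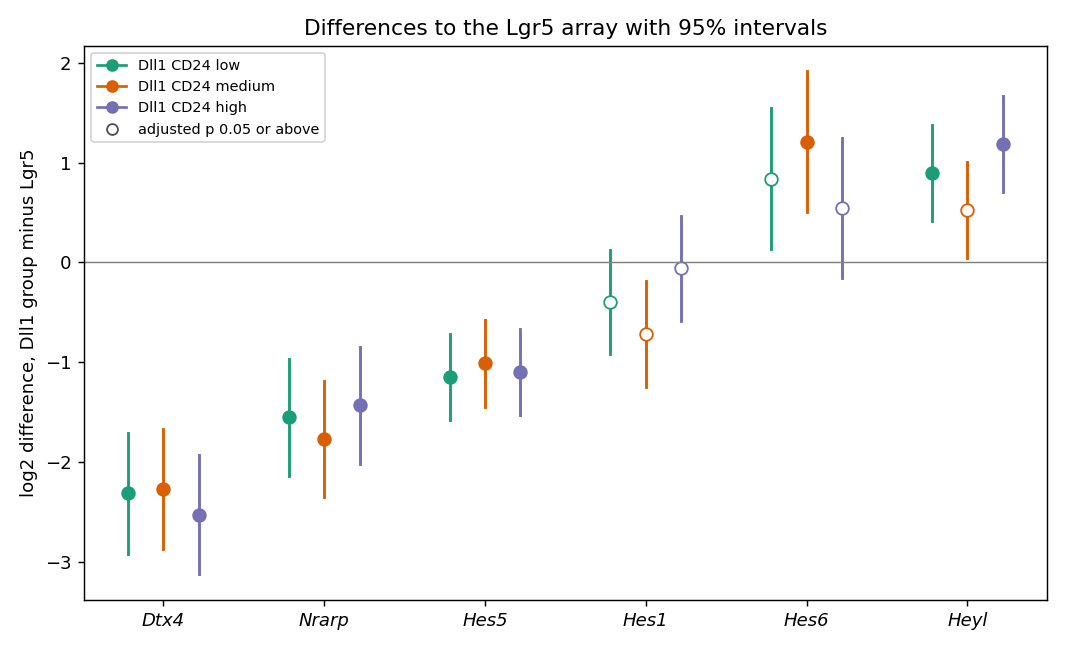
Log2 difference of each Dll1 group minus the Lgr5 array (vertical axis) for the 6 genes tested (horizontal axis), with 95% intervals of the limma fit and open points where the adjusted p was 0.05 or above. Dtx4, Nrarp and Hes5 lie below 0 in all 3 groups, and Hes6 lies above 0, with an adjusted p of 0.034 in CD24 medium. Heyl was near background and its Lgr5 and CD24 medium spots were not above it.

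None of these 3 genes was called between CD24 levels. Between CD24 medium and CD24 high, limma called 0 of the 6 genes higher and 2 lower, Hes1 and Heyl, beside 20.8% of all genes (7.52% higher, 13.3% lower). Between CD24 low and CD24 high it called 0 of the 6, beside 18% of all genes (6.83% higher, 11.2% lower), and between CD24 low and CD24 medium 0 of the 6, beside 0.114%, all of them lower. The 95% interval of the Dtx4 difference was −0.54 to 0.45 for CD24 low minus CD24 medium and −0.23 to 0.75 for CD24 medium minus CD24 high. For Nrarp and Hes5 the CD24 high spots were at background, so only CD24 low and CD24 medium can be set side by side. There the intervals were −0.26 to 0.69 for Nrarp and −0.49 to 0.22 for Hes5. 

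Hes6 ran the opposite way, above whole intestine in each sample and highest in CD24 medium. Its level was 1.17 and 1.01 in CD24 low, 1.45 and 1.47 in CD24 medium, with 1.13 and 0.46 in CD24 high, against 0.25 in Lgr5. All 6 Dll1 arrays were above the Lgr5 array, and the 2 CD24 high arrays were far apart. The group means were 1.09 ± 0.11, 1.46 ± 0.02 and 0.80 ± 0.48 (SD, n = 2 each). The mean of the Dll1 groups was 1.83-fold higher than Lgr5 (difference 0.87, SE 0.26, limma adjusted p = 0.046).

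By group, Hes6 was called higher than Lgr5 in CD24 medium, by 2.32-fold (difference 1.21, limma adjusted p = 0.034). The differences were 0.84 in CD24 low and 0.55 in CD24 high (limma adjusted p = 0.087 and 0.20), with 95% intervals of 0.14 to 1.55 and −0.16 to 1.25. The second Hes6 probe, shown above, read 1.44 and 1.42 in CD24 low, 1.62 and 1.73 in CD24 medium, with 1.29 and 0.52 in CD24 high, against 0.39 in Lgr5. Both probes thus put the groups in the order CD24 medium, CD24 low, CD24 high and Lgr5, though neighbours in that order were not called different. The differences of the used probe were −0.37 for CD24 low minus CD24 medium, 0.29 for CD24 low minus CD24 high and 0.67 for CD24 medium minus CD24 high (limma adjusted p = 0.69, 0.43 and 0.098).

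The place of CD24 high rests on the ratio. The Hes6 spot measured 8740 and 6370 in CD24 low, 8760 and 11700 in CD24 medium, with 2520 and 1940 in CD24 high, against 6810 in Lgr5, while the reference channel read 23800 to 35800. CD24 high is the dimmest group by intensity, and it exceeds Lgr5 after the loess curve of each array is taken out. With the sample channel alone the difference of CD24 high to Lgr5 was 0.09, and CD24 medium exceeded CD24 high by 0.87 (limma adjusted p = 0.029). Without CD24 high replicate 1 that last difference was 1.01 (limma adjusted p = 0.03), and without CD24 high replicate 2 the difference of CD24 high to Lgr5 was 0.89 (limma adjusted p = 0.036).

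The Hes6 call for the Dll1 mean held in 6 of 15 alternative settings, with differences of 0.58 to 1.09 and limma adjusted p-values of 0.015 to 0.095. It was lost without any 1 array of CD24 low (limma adjusted p = 0.063 and 0.057) or of CD24 medium (limma adjusted p = 0.078 and 0.083). The CD24 medium call was lost without either of its arrays (limma adjusted p = 0.097 and 0.12). Within slides, CD24 medium minus CD24 high was 0.31 on the slide with Lgr5 and 1.02 on the other, and the first slide gave 1.20 and 0.89 for CD24 medium and CD24 high minus Lgr5. Enteroendocrine markers, like Hes6, were highest in CD24 medium. In CD24 high they lay below Lgr5 by summed intensity, as the Hes6 spot did. By ratio, their median difference for CD24 high minus Lgr5 was 0.68, and 0 of 10 were called, beside 35.8% of all genes. The summed intensity of 10 enteroendocrine markers was 45599 to 118116 in CD24 low, 155552 to 388296 in CD24 medium and 3665 to 4810 in CD24 high, against 6349 in Lgr5. Paneth markers ran otherwise, with 21103 to 26367 in CD24 low, 119684 to 122294 in CD24 medium and 840432 to 868892 in CD24 high, against 31415 in Lgr5. Goblet markers gave 679153 to 1163162 in CD24 low and 599444 to 856053 in CD24 medium. They gave 164898 to 193695 in CD24 high, against 29785 in Lgr5. The part of these cells in the Hes6 values was not tested.

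**Figure D3:**
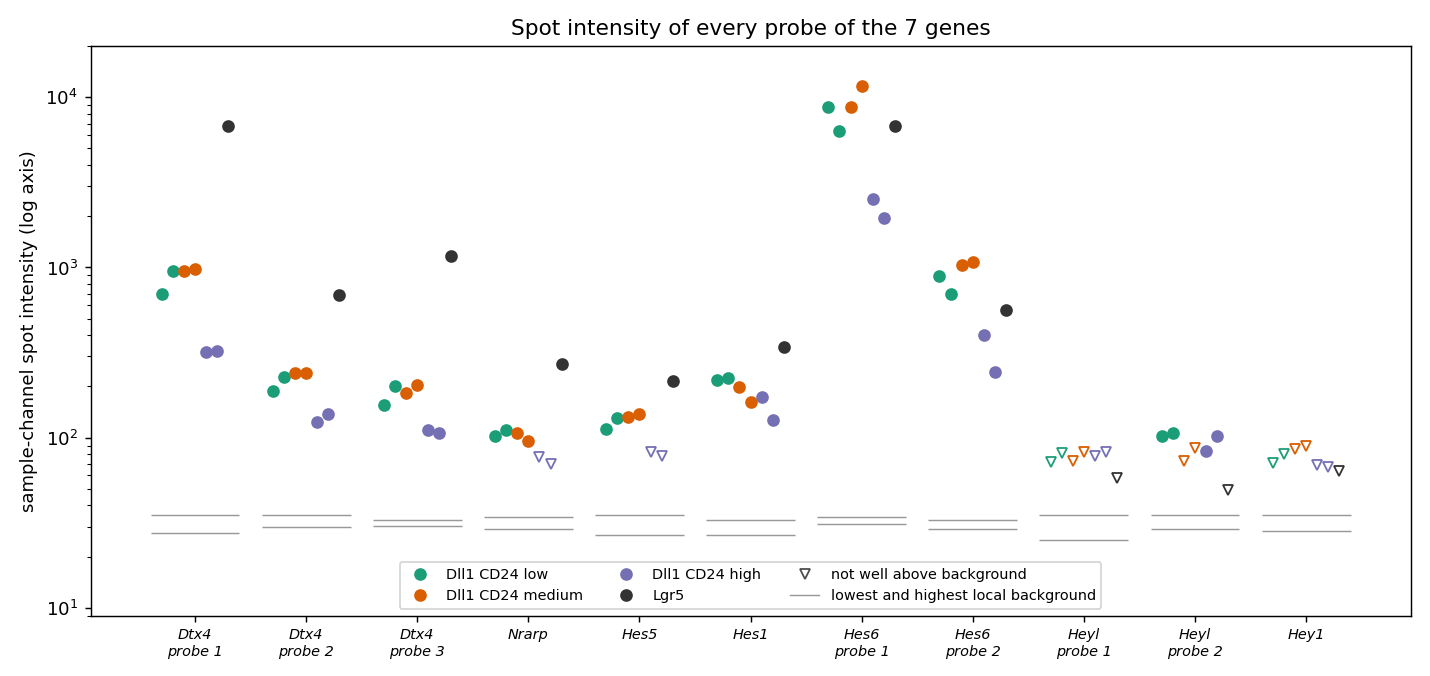
Spot intensity in the sample channel on a log axis (vertical) for all 11 probes (horizontal), 1 point per array, with open triangles not well above background and grey lines for the lowest and highest local background. The first Hes6 probe reads 2520 and 1940 in CD24 high, below the 6810 of the Lgr5 array, and heights of different probes are not comparable.

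Hes1, the main Notch-induced repressor of Atoh1 in the gut, was lowest in CD24 medium. Its level was −0.37 and −0.30 in CD24 low, −0.60 and −0.73 in CD24 medium, with 0.18 and −0.19 in CD24 high, against 0.06 in Lgr5. The Lgr5 value lay between the 2 CD24 high arrays. CD24 medium was 1.58-fold lower than CD24 high (difference −0.66, SE 0.18, limma adjusted p = 0.046). Against Lgr5 the Dll1 mean differed by −0.39 with a 95% interval of −0.86 to 0.07 (limma adjusted p = 0.17), CD24 medium by −0.72 and CD24 low by −0.40 (limma adjusted p = 0.067 and 0.24). CD24 high differed from Lgr5 by −0.06, with an interval of −0.59 to 0.47. Over the alternative settings that difference ran from −0.53 to 0.12, and that of the Dll1 mean from −0.80 to −0.23.

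The Hes1 call between CD24 medium and CD24 high was just under the threshold and held in 6 of 16 alternative settings. It was lost when any 1 of the 6 Dll1 arrays was left out, with limma adjusted p-values of 0.051 to 0.21 and differences of −0.84 to −0.48. The direction was the same on both slides, −0.78 and −0.54. The spots measured 219 and 223 in CD24 low, 198 and 162 in CD24 medium, with 174 and 127 in CD24 high, against 339 in Lgr5. By intensity alone CD24 high was thus not above CD24 medium, and Lgr5 was above every Dll1 array. The reference channel read 1470 to 1900. With the sample channel alone, the difference between CD24 medium and CD24 high was −0.46 after quantile scaling (limma adjusted p = 0.14).

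Heyl and Hey1, which are best known from vessels and smooth muscle, were at or near background. The used Heyl probe read −0.11 and −0.23 in CD24 low, −0.64 and −0.42 in CD24 medium, with 0.06 and 0.20 in CD24 high, against −1.06 in Lgr5. Its intensities were 102 and 106 in CD24 low, 72.9 and 87.6 in CD24 medium, with 83.3 and 102 in CD24 high, against 49.1 in Lgr5, and the CD24 medium and Lgr5 spots were not well above background. The ratio was thus lowest in Lgr5 and highest in CD24 high. The probe was in the fit because of CD24 low and CD24 high alone, so its differences, 0.87 for the Dll1 mean minus Lgr5 and −0.66 for CD24 medium minus CD24 high, are given as a description. The other Heyl probe was not well above background on any of the 7 arrays and gave 0.01 and −0.31, so the 2 probes disagree.

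Markers of the tissues that Heyl is known from were set beside it. Of 8 smooth muscle and fibroblast markers, 6 were higher in the Dll1 mean and 7 in CD24 high than in Lgr5, beside 17.5% and 21.2% of all genes. Between CD24 medium and CD24 high 5 were lower and 1 was higher, beside 13.3% and 7.52% of all genes. The median differences of these markers were 1.08, 1.48 and −1.21. By summed intensity these markers gave 4522 to 5851 in CD24 low, 5173 to 8269 in CD24 medium and 2315 to 2343 in CD24 high, against 3427 in Lgr5. Of 10 endothelial and mural markers, 4 to 7 were above background in CD24 low, 4 to 5 in CD24 medium and 2 in CD24 high, against 4 in Lgr5, with sums of 834 to 1079 on all arrays. Of the 5 tested, 1 was higher and 1 lower in the Dll1 mean than in Lgr5, beside 17.5% and 13.3% of all genes. In CD24 high 1 was higher than in Lgr5, and between CD24 medium and CD24 high 1 was lower, beside 21.2% and 13.3%. The part of either list in the Heyl values was not tested.

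Hey1 was well above background in the sample channel on 0 of 7 arrays, while whole intestine gave a clear signal on all 7. Its sample spots measured 71.0 and 80.6 in CD24 low, 85.3 and 89.7 in CD24 medium, with 69.1 and 67.4 in CD24 high, against 63.6 in Lgr5, and its reference spots 999 to 1200. The RNA was thus measured in whole intestine, and in the sorted cells there is only an upper bound. It was not tested between groups.

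Other parts of the pathway are given by lists chosen with these results known, and each count of the Dll1 mean against Lgr5 stands beside the 30.8% called over all genes. Of 4 Notch receptors, Notch2 and Notch1 were lower in the Dll1 mean than in Lgr5, with differences of −2.27 and −1.44 (limma adjusted p = 0.0019 and 0.004), and both were not well above background in CD24 high. Notch4 was higher, by 1.51 (limma adjusted p = 0.0021). Of 5 ligands tested 3 were higher in the Dll1 mean, Dll4 by 2.70, Dll3 by 1.64 and Dll1, which drives the sorted GFP, by 0.96. Dll3 was not well above background in Lgr5. The Dll1 groups were not alike for Dll1 itself, with differences to Lgr5 of 1.67 in CD24 low, 1.80 in CD24 medium and −0.59 in CD24 high (limma adjusted p = 0.013, 0.011 and 0.17).

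Of 4 further Hes and Hey relatives tested, Bhlhe40 and Hes2 were higher in the Dll1 mean than in Lgr5, by 1.81 and 1.75 (limma adjusted p = 0.0032 and 0.0066). Of 18 genes of Notch cleavage and transcription 5 were higher and 1 lower, a share near that of all genes. Tle2, a Groucho co-repressor of the kind Hes proteins recruit, was higher by 2.45, and its relative Tle4 was lower, with a difference of −1.21. Of 12 modulators 1 was higher and 2 lower: Mib1, a ubiquitin ligase for Notch ligands, differed by 0.57, and Pofut1 and Poglut1, which put sugars on Notch receptors, by −1.18 and −0.79. Rfng, 1 of 3 Fringe enzymes that modify those sugars, was higher by 1.97.

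Genes that Hes repressors are known to hold down, or that act beside them in secretory cells, were higher in Dll1 cells where they were called. Of 9, 4 were higher in the Dll1 mean than in Lgr5 and 0 lower: Spdef by 4.92, Gfi1 by 3.72, the cell cycle inhibitor Cdkn1c by 2.46 and Atoh1 by 2.11. The median of the 9 was 2.02, beside 0.13 over all genes, and is given as a description. It is the value of Insm1, which was not called for this mean (limma adjusted p = 0.098). Insm1 and Neurod1 were not well above background in Lgr5 or CD24 high. Both passed the filter on dim probes only through groups where they are high. Between CD24 medium and CD24 high, 4 of the 9 were higher and 0 lower, beside 7.52% and 13.3% of all genes. All 10 enteroendocrine markers were higher there as well, with a median difference of 4.47, and Neurod1 is in both lists. Of these markers, Rfx6, Pax4 and Neurod1 were not well above background in CD24 high and passed the filter on dim probes through other groups. Neurog3, the enteroendocrine master factor, read 4.86 and 5.32 in CD24 medium, against 0.70 and 0.30 in CD24 high, and Cdkn1c was higher by 1.89. Insm1 read 3.63 and 4.85 in CD24 medium and Neurod1 1.99 and 3.43, and both were not well above background in CD24 high, so that they entered the fit through groups where they are high. Atoh1, at 1.21 and 0.37 in CD24 medium against 0.98 and 0.31 in CD24 high, was not called.

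Other Notch components differed between CD24 medium and CD24 high as well. All 3 Fringe enzymes were called: Mfng and Lfng were higher in CD24 medium, by 2.24 and 0.93 (limma adjusted p = 0.027 and 0.021), and Rfng was lower, with a difference of −3.54 (limma adjusted p = 0.0012). Mfng lacked a value on CD24 high replicate 2, an outlier spot. Of the ligands, Dll1 was higher in CD24 medium by 2.39 (limma adjusted p = 0.0018). Notch4, Dll3 and Mib1 were lower in CD24 medium, with differences of −0.87, −1.47 and −1.09 (limma adjusted p = 0.014, 0.045 and 0.0065). CD24 low against CD24 medium gave 0 calls in any of these pathway lists.

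**Figure D4:**
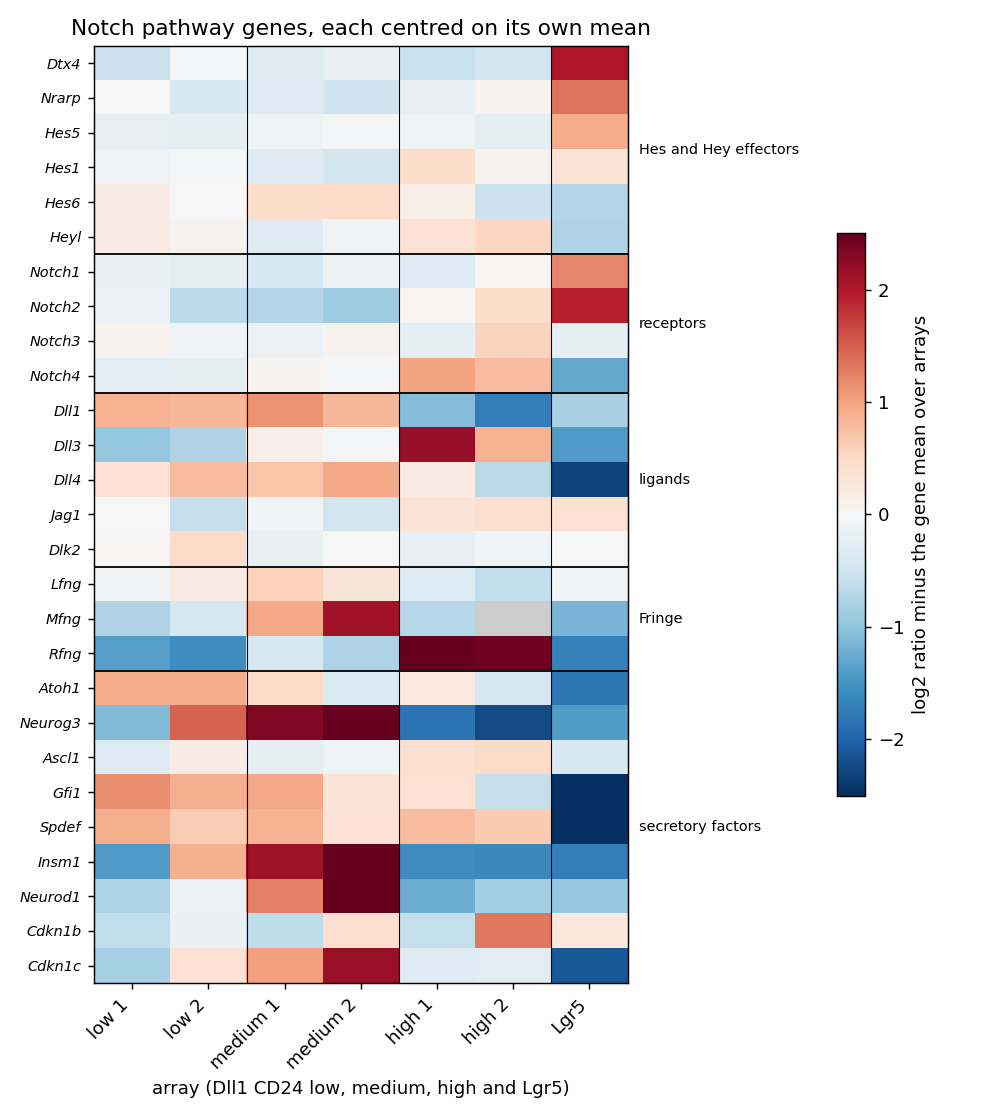
Log2 ratio minus the gene's mean over the arrays (colour, red above and blue below) for Notch pathway genes (rows, by role) on each array (columns), with grey for a missing value. Dtx4, Nrarp, Hes5, Notch1 and Notch2 are red on the Lgr5 array, where Spdef, Gfi1, Atoh1 and Dll4 are blue.

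Among the 6 genes tested, Hes5 and Dtx4 correlated at 0.97 over the 7 arrays, Hes5 and Nrarp at 0.91 and Nrarp and Dtx4 at 0.88, while Hes6 correlated at −0.82 with Nrarp and −0.66 with Hes1. These values describe 7 arrays that share 1 reference RNA, and for Dtx4, Nrarp and Hes5 the Lgr5 array makes up most of the range. Genes most like a member were sought among 6867 genes with a range of at least 1 over the arrays and a sample signal above background on 4 or more. Hes1 and Hey1 lacked that range or signal.

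For Hes6 the closest were Serpina9 (Pearson r = 0.981), Rita1 (0.971), Nisch (0.970), Nbeal2 (0.968) and Anks3 (0.965), over 7 arrays. Rita1 encodes a protein known to bind Rbpj and carry it out of the nucleus. It read 1.58 and 1.44 in CD24 low, 2.41 and 2.10 in CD24 medium, with 1.79 and 0.71 in CD24 high, against 0.64 in Lgr5. For Dtx4 the closest were Paox, Lage3, Sdr39u1, Snhg3 and Paics, with r of 0.992 to 0.996. Paics, an enzyme of purine synthesis, read −1.39 to −1.13 on the Dll1 arrays and 0.86 on the Lgr5 array.

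For Nrarp the closest genes were Nup43, Cep57l1, Sept6, Pole2 and Acsm3, with r of 0.988 to 0.997. Pole2, a subunit of a DNA polymerase of replication, read −1.02 to −0.41 on the Dll1 arrays and 0.86 on the Lgr5 array. For Hes5 they were Slc19a2, Echdc3, Mplkip, Memo1 and Zfp275, with r of 0.993 to 0.997, and the thiamine carrier gene Slc19a2 read −1.34 to −0.95 on the Dll1 arrays against 0.84 in Lgr5. For Heyl they were Saa1, Ifih1, Ablim1, Tstd3 and Inhba, with r of 0.985 to 0.994, on a probe near background.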

How the data were processed

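RNA of sorted intestinal cells was measured on 7 two-colour arrays. The array files, extracted with Agilent Feature Extraction 10.5.1.1 per the file headers, give mean and local background intensity for both channels and a log10 ratio of reference over sample. The series matrix as deposited by the authors holds log10 ratios that equal this column with its sign turned, to within 5e-06. None of it measures absolute RNA.

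Mean intensities were background corrected by normexp (offset 50), and log2 ratios of sample over reference were normalised by loess (span 0.3) inside each array, with control spots at weight 0 and outlier spots left out. An offset of this size pulls differences of dim spots towards 0. Dyes were not swapped, so a dye effect cancels between groups but not against whole intestine. A probe was kept if its sample signal was well above background on 2 or more arrays (24509 probes), and a gene was read from its brightest probe. That gave 17545 genes, 17489 of them comparable with Lgr5. RefSeq accessions named 26918 probes, and for 14256 the array's own name was used.

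The labels gave the groups. In limma 3.58.1 (R 4.3.3, data.table version 1.17.8), all 7 arrays entered 1 fit with group means, with 3 residual and 3.55 prior degrees of freedom, and p was adjusted over all genes (Benjamini-Hochberg, threshold 0.05). The fit was tested on simulated data. The number of arrays limits the precision. Members and lists were chosen with earlier results of these data known. All 7 members were named, and from the other Notch lists at most 4 called genes per list and comparison, by absolute difference, apart from some not reported here. Dtx1, Dtx2, Dtx3 and, between CD24 levels, Atoh1 were added after their values were seen. The 5 genes most like a member were ranked by Pearson correlation, passing over clones, predicted genes and accessions. Deviations of same-numbered samples correlated at 0.477 (CD24 low and medium), −0.006 (low and high) and 0.30 (medium and high), so the number was not treated as a pairing. Probe coordinates are mm9, from the array files, and promoter windows are RefSeq's on GRCm38.p6. Figures were drawn with matplotlib 3.10.9, pandas 2.3.3 and numpy 2.4.6 under Python 3.11.15. Alternatives changed the offset, the background step, the signal used, the filter, the choice of probe, the treatment of slides, the replicate block and the arrays included.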

Additional observations from a re-analysis of the deposited data

How the results depend on the processing

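The calls of Dtx4, Nrarp and Hes5 for the Dll1 mean against Lgr5 were kept wherever these genes were tested, which for Nrarp and Hes5 leaves out the filter on all 7 arrays. Calls of Hes6, Hes1 and Heyl were lost in some settings. Over single genes and settings, 557 values kept direction and side of the threshold, 43 lost the call, 8 gained one and 19 changed sign, none of these called. Depth of signal limits Hes5, Nrarp, Heyl and Hey1, whose spots were near background in some groups. The cause of the shifts below was not tested.

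The number of the 6 genes called between CD24 medium and CD24 high, 2, was 1 with an offset of 16, Agilent's processed signals, the sample channel alone, the series matrix or a filter on all 7 arrays. Between CD24 low and CD24 high it was 1 without background subtraction. For the Dll1 mean against Lgr5 it was 3 with processed signals or the series matrix and 2 with the filter on all 7 arrays, which tests fewer genes. For CD24 high against Lgr5 it was 1 with that filter. For CD24 low against Lgr5 it was 2 with processed signals, the series matrix or slide as a term, and 1 with that filter. Leaving out 1 array gave 0 to 1 genes for CD24 medium against CD24 high, 0 to 0 for CD24 low against CD24 high and against CD24 medium, 4 to 5 for the Dll1 mean and for CD24 high against Lgr5, 2 to 4 for CD24 medium and 3 to 5 for CD24 low against Lgr5.

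Over all genes, calls between CD24 low and CD24 high numbered 5043 without background subtraction, 5684 with processed signals and 5698 with the series matrix, against 3161. Between CD24 low and CD24 medium they numbered 34 without subtraction and 12 with an offset of 16, against 20. With slide as a term they were 3476 for the Dll1 mean and 1402 for CD24 low against Lgr5. Leaving out 1 array gave 1259 to 3981 for CD24 medium against CD24 high, 1682 to 3363 for CD24 low against CD24 high, 9 to 41 for CD24 low against CD24 medium, 4058 to 5768 for the Dll1 mean, 4889 to 6357 for CD24 high, 1371 to 3627 for CD24 medium and 2302 to 3868 for CD24 low against Lgr5.

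Signs changed for uncalled values only. Nrarp became 1.23 for CD24 medium minus CD24 high with processed signals and the series matrix and 0.22 with the sample channel alone. For CD24 low minus CD24 high it became 1.55, 1.55 and 0.25 in these settings, and ran −0.31 to 0.07 on leaving out 1 array. Hes5 became 0.53, 0.53 and 0.19 there, and ran −0.10 to 0 on leaving out 1 array. Dtx4 became 0 for CD24 low minus CD24 medium with the mean of all probes, 0.20 without CD24 low replicate 1 and 0.03 without CD24 medium replicate 2, and ran −0.30 to 0.20 over the arrays left out. For CD24 low minus CD24 high, Dtx4 ran −0.03 to 0.47 and Hes6 −0.05 to 0.63 over the arrays left out. Hes1 became 0.06 for CD24 high minus Lgr5 with slide as a term, and ran −0.25 to 0.12 on leaving out a CD24 high array.

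With the replicate number as a block over the 6 Dll1 arrays, Hes1 differed by −0.66 between CD24 medium and CD24 high (limma adjusted p = 0.044), and the limma adjusted p was 0.038 for Heyl and 0.076 for Hes6. The block changed no call of these genes, and the samples share a number but no stated animal.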

Other observations

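The Groucho family, co-repressors that Hes proteins recruit, was not uniform over the sorted cells. Tle2 read 0.00 and 0.59 in CD24 low, 1.49 and 2.66 in CD24 medium, with 2.84 and 2.20 in CD24 high, against −0.81 in Lgr5. Tle4 read −2.18 and −2.66 in CD24 low, −2.21 and −2.42 in CD24 medium, with −2.11 and −2.16 in CD24 high, against −1.08 in Lgr5, so all groups lay below whole intestine. Each Dll1 group was lower than Lgr5 for Tle4, with differences of −1.34, −1.23 and −1.05 in CD24 low, medium and high (limma adjusted p = 0.015, 0.019 and 0.019). Tle1 and Tle3 were not called for the Dll1 mean against Lgr5, with differences of 0.97 and 0.42 (limma adjusted p = 0.13 and 0.24). Tle1 and Tle3 were named after their values were seen.

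Hes2, a relative of Hes1 outside the 7 genes, read −0.57 and 0.01 in CD24 low, −1.15 and −0.72 in CD24 medium, with −1.08 and −0.69 in CD24 high, against −2.45 in Lgr5. It was higher than Lgr5 in each Dll1 group, by 2.17, 1.52 and 1.57 in CD24 low, medium and high (limma adjusted p = 0.0075, 0.023 and 0.012). Among genes of the Hes name tested against Lgr5, Hes2 and Hes6 were therefore higher in the Dll1 mean, Hes5 lower, and Hes1 and Hes7 not called.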
